A study of Bos taurus with 40 samples.

Results

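Interferon-stimulated genes are switched on when a cell senses interferon, and the 5 described here are MX1 (ENSBTAG00000030913), MX2 (ENSBTAG00000008471), ISG15 (ENSBTAG00000014707), RSAD2 (ENSBTAG00000016061) and OAS2 (ENSBTAG00000014628). They were chosen by identifier, without use of their values, and all 5 were listed in each of the 40 libraries, among 13685 genes listed at the end of Period 1 and 13605 at the end of Period 2. The samples were jejunal epithelium scraped at slaughter from Holstein Friesian bulls, with 1 RNA sequencing library per animal and 10 animals in each of 4 groups. RES animals had a restricted feed allowance up to day 125 of Period 1 and were then fed ad libitum up to day 55 of Period 2, while ADLIB animals were fed ad libitum in both periods. The RES Period 1 and ADLIB Period 1 groups (Restricted and Control at TP1 in the labels) were sampled at the end of Period 1, and the RES Period 2 and ADLIB Period 2 groups (TP2) at the end of Period 2. All groups were given the same concentrate and grass silage ration and differed in the amount, and the labels give no age.

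Interferons of type I and of the lambda family bind receptors on the cell surface and act through JAK kinases and STAT transcription factors to raise a large set of antiviral genes together. The intestinal epithelium is known to respond to interferon lambda in particular, and in cattle ISG15, MX1, MX2 and OAS genes are widely used as readouts of interferon exposure. MX1 and MX2 encode dynamin-like GTPases that block the multiplication of viruses, and RSAD2 encodes viperin, a radical SAM enzyme that makes a chain-terminating nucleotide. ISG15 encodes a ubiquitin-like protein that is attached to other proteins and is also secreted, and OAS2 encodes an oligoadenylate synthetase that senses double-stranded RNA and activates RNase L. In the RefSeq annotation MX1 and MX2 are neighbouring genes and OAS2 lies next to OAS1Y, each a member of the same family, so how reads were shared between such relatives is uncertain.

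Levels are given in CPM, read counts relative to library size as scaled by the authors within the 20 libraries of a period. Every deposited value was a whole multiple of the value of 1 read in its library, which gave back between 4431390 and 8295900 reads per library. Of the 40 libraries, RES Period 2 replicate 1 and RES Period 1 replicate 6 stood apart. They had 585 and 87 listed genes at 0, against 42 at most in the other 38 libraries, and their correlations with the median of the other libraries were 0.815 and 0.883, against 0.918 at least. RES Period 2 replicate 1 held both the highest ISG15 value and the lowest MX2 value of its group, so results that rest on it are also given without both libraries. In it 1 read stood for 0.295 CPM at 5769232 reads, against 0.167 CPM at 5854896 reads in replicate 3 of that group. The scaling by the authors thus raised its CPM values relative to its read counts. In scraped tissue, fewer cells of a type and less RNA per cell cannot be told apart. The files give identifiers without symbols, so neither defining markers of epithelium nor the other genes of the interferon pathway could be looked up. The extraction text of the labels names muscle, whereas the sample labels name jejunal epithelium, and the latter were followed.

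At the end of Period 1 the levels of the 5 genes in RES and ADLIB animals overlapped widely. At the end of Period 2, MX1, MX2, ISG15 and RSAD2 were on average higher in RES than in ADLIB animals, but the animals within a group differed by more than the groups did and no difference passed the test. Variation between animals was shared by most pairs of the genes, and the correlation was highest between ISG15 and RSAD2 and between MX2 and OAS2.

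MX1 ranged in ADLIB Period 1 from 31.0 to 120.7 CPM with a median of 57.9, and in RES Period 1 from 36.0 to 153.7 CPM with a median of 49.9. In ADLIB Period 2 it ranged from 25.4 to 118.3 CPM with a median of 38.4, and in RES Period 2 from 6.32 to 172.7 CPM with a median of 57.1. RES Period 2 held both the highest and the lowest MX1 value among the 40 animals, and replicates 2, 8 and 7 of that group, at 172.7, 152.3 and 128.4 CPM, exceeded every ADLIB animal of the period. The lowest value, in replicate 6, came from 43 reads.

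MX2 ranged from 4.71 to 27.9 CPM in ADLIB Period 1 with a median of 13.0, and from 2.57 to 23.6 CPM in RES Period 1 with a median of 11.6. In ADLIB Period 2 the range was 3.58 to 23.3 CPM with a median of 5.93, and in RES Period 2 it was 2.36 to 37.4 CPM with a median of 14.2. Of the 10 RES Period 2 animals 9 were above the ADLIB median of the period and 3 above the highest ADLIB animal, while the remaining animal, replicate 1, was below every ADLIB animal.

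ISG15 ranged from 6.06 to 115.1 CPM in ADLIB Period 1 with a median of 32.9, and from 8.18 to 118.3 CPM in RES Period 1 with a median of 18.8. In ADLIB Period 2 it ranged from 5.01 to 40.9 CPM with a median of 10.8, and in RES Period 2 from 9.87 to 93.5 CPM with a median of 25.7. The RES Period 2 animals lay far apart from each other. Replicates 1, 2, 7 and 8 were between 86.4 and 93.5 CPM, replicate 4 was at 38.1 CPM, and the other 5 animals were between 9.87 and 13.4 CPM. The first 4 exceeded every ADLIB animal of the period, whereas the lowest 5 lay within the ADLIB range. Replicate 1 had 317 ISG15 reads in 5769232, against 564 in 7189279 for replicate 2, so relative to library totals alone it was not the highest.

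RSAD2 ranged from 6.73 to 40.8 CPM in ADLIB Period 1 with a median of 17.3, and from 4.68 to 27.1 CPM in RES Period 1 with a median of 12.8. In ADLIB Period 2 the range was 4.69 to 16.9 CPM with a median of 8.77, and in RES Period 2 it was 3.84 to 39.1 CPM with a median of 16.8. Here 5 RES Period 2 animals, replicates 1, 2, 4, 7 and 8, were above the highest ADLIB animal, and replicate 3 was below the lowest. For replicate 1 this rests on the scaling of its library. It had 75 RSAD2 reads in 5769232, against 91 in 5082704 for ADLIB Period 2 replicate 9, a smaller share of its library.

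OAS2 was close to the limit of detection, with at most 53 reads in a library. It ranged from 0.677 to 3.07 CPM in ADLIB Period 1 with a median of 1.20, and from 0.856 to 2.39 CPM in RES Period 1 with a median of 1.43. In ADLIB Period 2 it ranged from 0 to 4.70 CPM with a median of 0.868, and in RES Period 2 from 0 to 6.14 CPM with a median of 1.14. No OAS2 read was found in ADLIB Period 2 replicate 4 and in RES Period 2 replicates 1 and 3, where a count of 0 allows a level of up to 0.413, 0.885 and 0.50 CPM (3 reads each). At the median read number of a group, from 6 to 9 reads, counting error alone gives a coefficient of variation between 33.3 and 40.8%, against 4.74 to 5.92% for MX1. These figures cover counting error only.

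**Figure D1:**
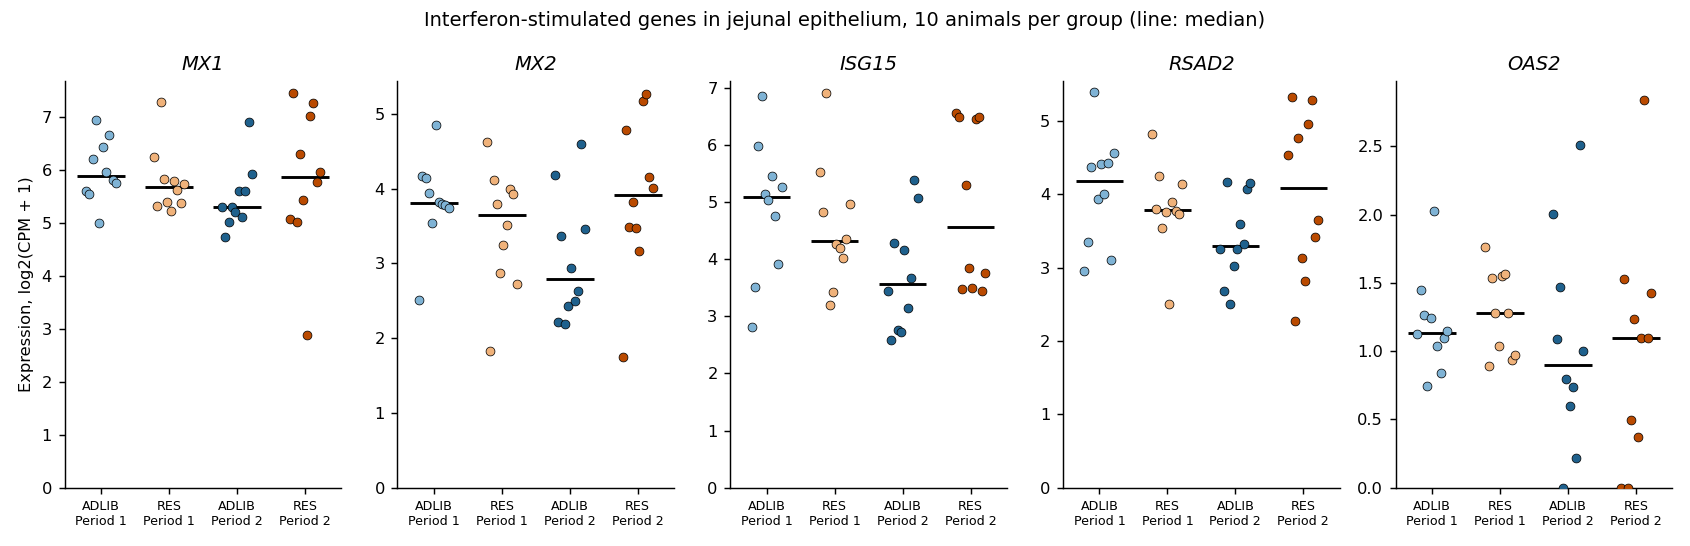
Expression of the 5 genes in each of the 40 animals on the log2(CPM + 1) scale (vertical axes, 1 panel per gene with its own scale), by group (horizontal axes); points are animals and the line is the median of 10. Of the 4 groups, RES Period 2 has the largest standard deviation for all 5 genes. Without the 2 libraries that stood apart this no longer holds for MX2. Replicate 6 of RES Period 2 lies at 6.32 CPM for MX1, and that group splits into high and low animals for ISG15.

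With the 40 libraries scaled together, the ADLIB Period 2 group had the lowest median of the 4 groups for all 5 genes. For MX1 the order of the medians was ADLIB Period 1 at 58.2 CPM, RES Period 2 at 57.4, RES Period 1 at 50.3 and ADLIB Period 2 at 38.0. RSAD2 followed the same order, with 17.5, 17.2, 12.9 and 8.57 CPM, and so did ISG15, with 33.2, 25.6, 19.0 and 10.6 CPM. For MX2 RES Period 2 came first at 14.2 CPM, before ADLIB Period 1 at 13.1, RES Period 1 at 11.7 and ADLIB Period 2 at 5.80. OAS2 medians lay between 0.872 and 1.44 CPM. For MX1, RSAD2, ISG15 and MX2 only 1 of the 3 steps between neighbours was a comparison tested here, and it did not pass the threshold. ADLIB Period 1 was not tested against RES Period 2, nor RES Period 1 against ADLIB Period 2. Differences between the 4 group means accounted for 15.9% of the variance (sum of squares on the log2 scale) of MX2, 15.8% of ISG15, 11.2% of RSAD2, 5.55% of MX1 and 3.8% of OAS2, with the rest lying between animals of a group. The same share was 5.46% for the median gene.

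The first comparison asked whether restricted feeding changed expression by the end of Period 1. Of 13685 genes tested with limma on log2(CPM + 1), 0 (0%) had a Benjamini-Hochberg adjusted p under 0.001, the threshold of the study, and 494 (3.61%) had an unadjusted p under 0.05. Neither threshold was passed by any of the 5 genes, nor were they among the 3.98% of genes with an unadjusted p under 0.05 in the edgeR likelihood ratio test on the recovered reads, the kind of test used in the study. The study itself reported differentially expressed genes in each comparison of diets within a period and of periods within a diet. Each time it reported more genes than limma or the likelihood ratio test called here, and the reason was not tested. The differences of the 5 genes, RES less ADLIB on the log2(CPM + 1) scale, lay between -0.36 for MX2 and 0.08 for OAS2. Their median was -0.23 against 0.0015 for all genes, and 4 of 5 were below 0. Most pairs varied together between animals, so a shared sign or median is not 5 separate results, here or in the comparisons below. The intervals were wide. For ISG15 the difference was -0.30 with a standard error of 0.46 and a 95% confidence interval from -1.26 to 0.65. For MX1 it was -0.21 with an interval from -0.72 to 0.31. Single animals moved these values. Without RES Period 1 replicate 3 the difference was -0.56 for ISG15 and -0.38 for MX1, and without ADLIB Period 1 replicate 4 it was -0.08 and -0.10.

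The second comparison was made after 55 days of ad libitum feeding of both groups. By limma 0 of 13605 genes (0%) passed the adjusted threshold and 280 (2.06%) had an unadjusted p under 0.05, among them ISG15 and MX2. ISG15 was 2.31-fold higher in RES on the log2(CPM + 1) scale, a difference of 1.21 with a standard error of 0.51 and an unadjusted p of 0.0275, and the adjusted p was 0.99. MX2 was 1.81-fold higher, a log2 difference of 0.86 with a standard error of 0.39, an unadjusted p of 0.0409 and the same adjusted p. The difference was 0.61 (SE 0.37) for RSAD2, 0.35 (SE 0.43) for MX1 and -0.03 (SE 0.34) for OAS2. Leaving out 1 animal moved the MX1 difference to 0.16 (without RES Period 2 replicate 2) or 0.67 (without replicate 6). The median of the 5 log2 differences was 0.61 against -0.0073 for all genes.

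The likelihood ratio test also called 0 genes (0%) in this comparison at an adjusted p under 0.001. It gave unadjusted p of 0.0025 for ISG15 and 0.0164 for both MX2 and RSAD2, with adjusted p of 0.74 for ISG15 and above 0.99 for the other two, where 4.32% of all genes had an unadjusted p under 0.05. Without the 2 libraries that stood apart, the limma difference was 1.03 for ISG15 and 1.10 for MX2. When each animal of the period was left out in turn, the ISG15 difference stayed between 1.03 and 1.39, with an unadjusted p under 0.05 in 14 of 20 fits, and the MX2 difference between 0.71 and 1.10, in 9 of 20 fits.

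**Figure D2:**
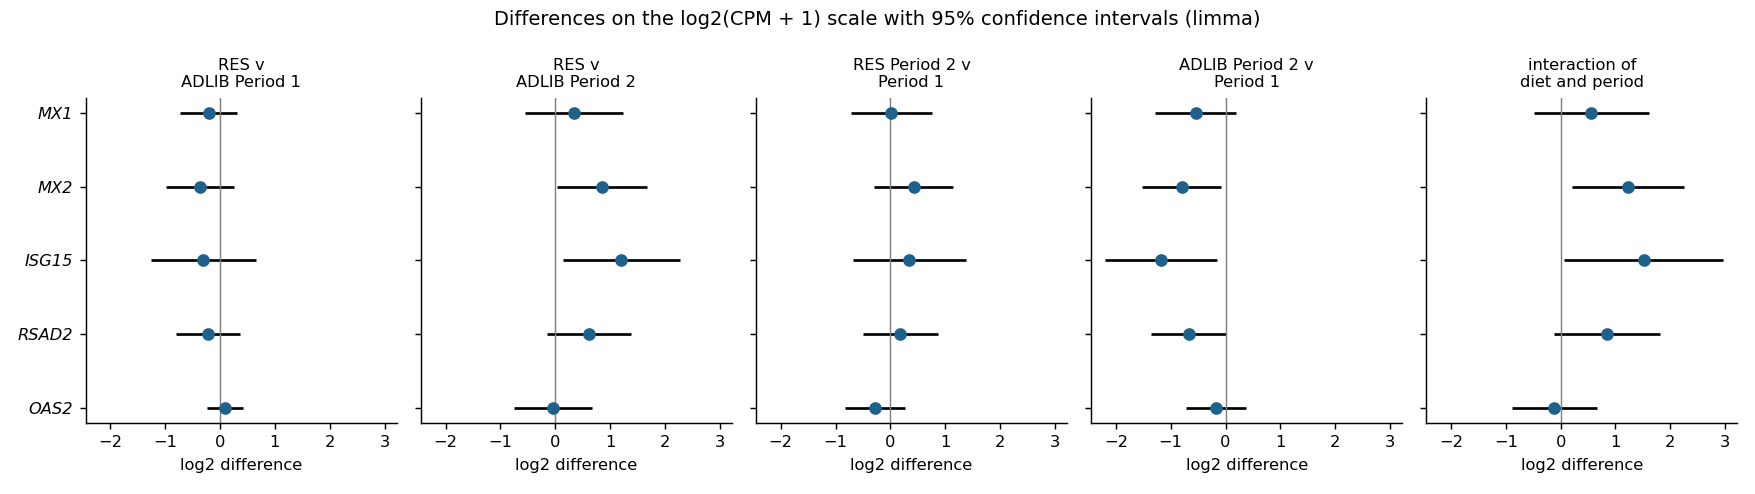
Differences on the log2(CPM + 1) scale (horizontal axes) for the 5 genes (vertical axes) in the 5 comparisons; points are limma estimates and bars are 95% confidence intervals from 10 animals per group. In the second panel the intervals of ISG15 (0.15 to 2.27) and MX2 (0.04 to 1.68) lie above 0 before any correction for the number of genes tested.

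Comparisons between the periods used the recovered reads of the 13509 genes listed in both, scaled over all 40 libraries. The periods held different animals slaughtered at different times, so period cannot be told apart from age or slaughter day. In RES animals limma called 0 of 13509 genes (0%) at the adjusted threshold and 1078 (7.98%) at an unadjusted p under 0.05, and the 5 genes were in neither count. Period 2 less Period 1 was 0.43 for MX2, 0.35 for ISG15, 0.18 for RSAD2, 0.02 for MX1 and -0.28 for OAS2, with standard errors between 0.27 and 0.51. Leaving out 1 animal at a time gave 0.16 (without RES Period 2 replicate 1) to 0.61 (without RES Period 1 replicate 3) for ISG15, 0.24 (without RES Period 1 replicate 2) to 0.66 (without RES Period 2 replicate 1) for MX2 and -0.48 (without RES Period 2 replicate 8) to -0.17 (without RES Period 2 replicate 3) for OAS2. The likelihood ratio test called 3 genes (0.0222%) here, none of them among the 5, and none of the 5 was among the 10.1% of genes with an unadjusted p under 0.05. In ADLIB animals limma called 0 genes (0%), and 332 (2.46%) had an unadjusted p under 0.05. All 5 differences were below 0, with a median of -0.67 against 0.00097 for all genes. As most pairs of the genes varied together between animals, these are not 5 separate results. ISG15 gave -1.17 (SE 0.51, unadjusted p 0.0262) and MX2 -0.80 (SE 0.36, unadjusted p 0.0315), each with an adjusted p of 0.97. RSAD2 gave -0.67 with an unadjusted p of 0.0536. In the likelihood ratio test, where 3.55% of genes had an unadjusted p under 0.05, ISG15 (0.0099) and RSAD2 (0.0226) were among them and MX2 (0.0536) was not, each with an adjusted p of 0.99.

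Whether the difference between diets changed from Period 1 to Period 2 was tested as an interaction. The interaction uses the same animals as the other comparisons, so it is no separate evidence. Limma called 0 of 13509 genes (0%) and 870 (6.44%) had an unadjusted p under 0.05. The interaction was 1.23 (SE 0.51) for MX2 with an unadjusted p of 0.0203 and 1.52 (SE 0.72) for ISG15 with an unadjusted p of 0.0404, both at an adjusted p of 0.72. It was 0.85 for RSAD2, 0.56 for MX1 (0.38 without RES Period 2 replicate 2 and 0.89 without replicate 6) and -0.11 for OAS2. MX2 had an unadjusted p under 0.05 in all 40 fits that left out 1 animal, and ISG15 in 21 of the 40. The likelihood ratio test called 1 gene (0.0074%), which was none of the 5, and 9.2% of genes had an unadjusted p under 0.05. MX2 (0.0137), ISG15 (0.0098) and RSAD2 (0.0119) were among the latter, with adjusted p between 0.42 and 0.44.

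Spread between animals was described by the standard deviation (SD) of log2(CPM + 1) within a group. ISG15 had the largest SD of the 5 genes in every group, with 1.19 in ADLIB Period 1, 1.07 in RES Period 1, 0.98 in ADLIB Period 2 and 1.45 in RES Period 2. These values lay at or above the 97.6th percentile of all listed genes in each group, where the median gene had an SD between 0.308 and 0.466. For MX1 the SD was 0.58, 0.61 and 0.61 in the first 3 of these groups and 1.35 in RES Period 2. For RSAD2 it was 0.75, 0.59, 0.59 and 1.09, and for MX2 0.59, 0.81, 0.83 and 1.05. OAS2 had SDs between 0.31 and 0.85, and at its low read numbers counting error takes a larger share of them.

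In Period 2 the SD in RES exceeded that in ADLIB for all 5 genes, and the median gene also had a larger SD in RES, 0.466 against 0.308. Without the 2 libraries that stood apart, the difference in SD for MX2, RES less ADLIB, was -0.0671. In the test of the mean absolute deviation from the group median, with RES and ADLIB labels permuted, none of 10 tests passed after adjustment. RSAD2 in Period 2 gave the lowest permutation p, 0.0118 (adjusted p 0.12), with mean deviations of 0.96 in RES and 0.46 in ADLIB. ISG15 gave 1.32 and 0.79 with a permutation p of 0.0436 (adjusted 0.22), and MX1 gave 0.98 and 0.40 with a permutation p of 0.0684 (adjusted 0.23). In Period 1 the differences lay between -0.22 and 0.27.

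To see how far the genes varied together apart from diet and period, each value was set relative to the mean of its group, and every pair was correlated over the 40 animals. All 10 correlations were above 0, and 8 had an adjusted permutation p under 0.05 over the 10 pairs. ISG15 and RSAD2 had the highest, with a Pearson's r of 0.83 and a Spearman's rho of 0.84, and adjusted p of 5e-05 and 1e-04. MX2 and OAS2 followed with r = 0.73 (adjusted permutation p 5e-05) and rho = 0.70 (adjusted permutation p 1e-04). The unadjusted permutation p of both Pearson correlations, 1e-05, was the smallest that the permutations could give.

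MX1 varied with RSAD2 (r = 0.69, rho = 0.65), ISG15 (r = 0.65, rho = 0.58) and MX2 (r = 0.62, rho = 0.65), with adjusted permutation p for r of 0.00012, 1e-04 and 0.00012 and for rho of 1e-04, 0.0014 and 1e-04. MX2 varied less with RSAD2 (r = 0.46, adjusted permutation p 0.0098, rho = 0.51, 0.0028) and ISG15 (r = 0.39, adjusted permutation p 0.0262, rho = 0.43, 0.0129). In RES Period 2 replicate 1 ISG15 was high and MX2 low. Without the 2 libraries that stood apart they were 0.60 and 0.57, and without the 2 animals farthest from the MX2 median to 0.63 and 0.64. For the 3 MX1 pairs named above, leaving out the 2 animals farthest from the MX1 median gave 0.66, 0.64 and 0.66 for RSAD2, ISG15 and MX2. For ISG15 and RSAD2 r was 0.84 without the 2 animals farthest from the ISG15 median. For MX2 and OAS2 r was 0.72 without the 2 animals farthest from the MX2 median. Animals were not left out by their OAS2 value, which rests on few reads.

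By Spearman's rho the 3 lowest of the 10 pairs were those of OAS2 with MX1, RSAD2 and ISG15. With MX1 r was 0.48 (adjusted permutation p 0.0175), but rho was 0.32 (adjusted permutation p 0.0744), and without the 10 RES Period 2 animals r fell to 0.28 (adjusted permutation p 0.19). With RSAD2 r was 0.36 (adjusted permutation p 0.0541) and rho 0.23 (0.21), and with ISG15 r was 0.27 (adjusted permutation p 0.12) and rho 0.17 (0.31). Without the 2 libraries that stood apart, the last 2 values of r were 0.46 (adjusted permutation p 0.0159) and 0.37 (0.0294). Leaving out the 2 animals farthest from the median of the other gene gave 0.46 with MX1, 0.34 with RSAD2 and 0.32 with ISG15.

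**Figure D3:**
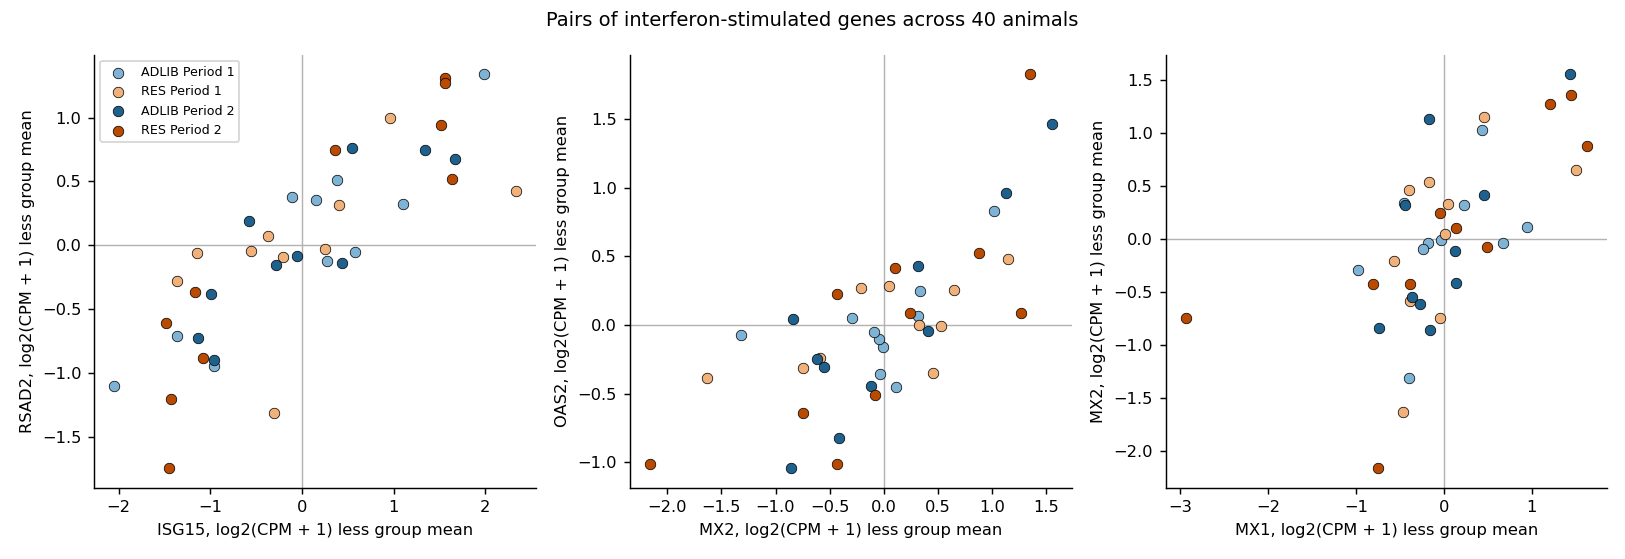
Values of 3 pairs in 40 animals, each on the log2(CPM + 1) scale less its group mean, for ISG15 and RSAD2 (r = 0.83), MX2 and OAS2 (r = 0.73) and MX1 and MX2 (r = 0.62); colours mark the 4 groups of 10. Animals of all 4 groups lie along the first relation, and the MX1 point far to the left in the third panel is RES Period 2 replicate 6.

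Within the groups of 10 animals, 7 pairs were positively correlated in all 4 groups. For ISG15 and RSAD2 r was 0.91 in ADLIB Period 1, 0.52 in RES Period 1, 0.86 in ADLIB Period 2 and 0.92 in RES Period 2. For MX2 and OAS2 it was 0.54, 0.67, 0.87 and 0.76 in the same order. The other 3 pairs, OAS2 with MX1, ISG15 and RSAD2, had r of -0.21, -0.22 and -0.18 in ADLIB Period 1 and were above 0 in the other groups. The libraries also carry codes with a first digit from 1 to 4, of unstated meaning, shared by 10 libraries each. Within these 4 sets, r of ISG15 and RSAD2 lay between 0.79 and 0.94 and r of MX2 and OAS2 between 0.35 and 0.93. For OAS2 within the code digit 1, r was -0.25 with MX1 and -0.11 with ISG15.

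**Figure D4:**
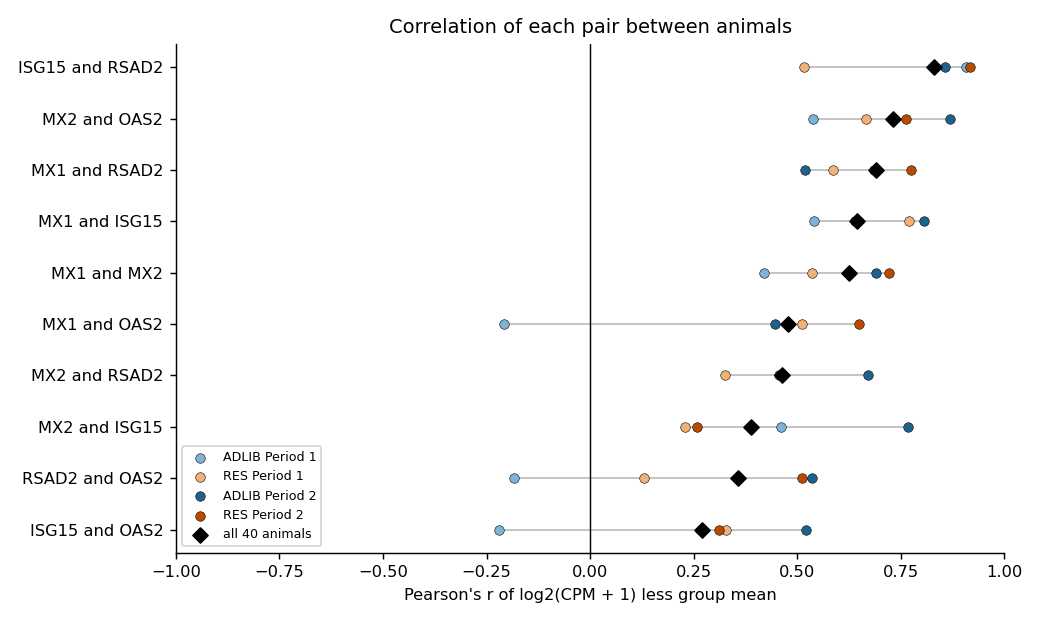
Pearson's r (horizontal axis) of the 10 pairs of genes (vertical axis), computed on log2(CPM + 1) less the group mean; diamonds are all 40 animals and circles are the groups of 10. The diamonds run from 0.27 to 0.83, and only OAS2 pairs have a circle below 0, each time in ADLIB Period 1.

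The r values of the 5 genes with all other listed genes centred near 0, with medians between -0.05 and 0.02. Among the 13508 other genes, OAS2 had the highest r with MX2, and MX2 the highest r with OAS2. ISG15 ranked 2nd for RSAD2 and RSAD2 5th for ISG15. For MX1, RSAD2 ranked 3rd, ISG15 5th and MX2 11th, but in the other direction MX1 ranked 32nd for RSAD2, 179th for ISG15 and 3rd for MX2. The remaining ranks were lower. ISG15 ranked 254th for MX2 and MX2 2107th for ISG15, RSAD2 ranked 74th for MX2 and MX2 927th for RSAD2, and OAS2 ranked 85th for MX1, 1713th for RSAD2 and 3311th for ISG15.

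The genes whose pattern was most like the mean standardised profile of the 5, by r over the 40 animals, were ENSBTAG00000003366 with r = 0.84 and ENSBTAG00000046580 with r = 0.81. The 10 most alike ran down to r = 0.67, and 7 of 13504 genes were above 0.7. The files pair none of these identifiers with a name. ENSBTAG00000003366 had an r between 0.60 with OAS2 and 0.75 with MX1.

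By animal, 8 of 40 had all 5 genes above their group mean and 7 had all 5 below it. RES Period 2 replicates 2 and 8, RES Period 1 replicate 1 and ADLIB Period 2 replicate 9 were among the 3 highest of their group for all 5 genes. ADLIB Period 2 replicate 9 had 118.3 CPM of MX1 and 40.9 CPM of ISG15, against group medians of 38.4 and 10.8. RES Period 2 replicate 6 was among the 3 lowest of its group for all 5, with 6.32 CPM of MX1, 7.94 of MX2, 10.3 of ISG15, 6.03 of RSAD2 and 0.294 of OAS2. These ranks and means were taken within each group, so every group had high animals by construction. By level, the highest MX1 value was 120.7 CPM in ADLIB Period 1, 153.7 in RES Period 1, 118.3 in ADLIB Period 2 and 172.7 in RES Period 2. The genes did not always move as a block. ADLIB Period 1 replicate 4 was highest of its group for MX1, ISG15 and RSAD2 but lowest for OAS2. RES Period 2 replicate 1 was highest for ISG15, in CPM as scaled by the authors, but lowest for MX2.

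**Figure D5:**
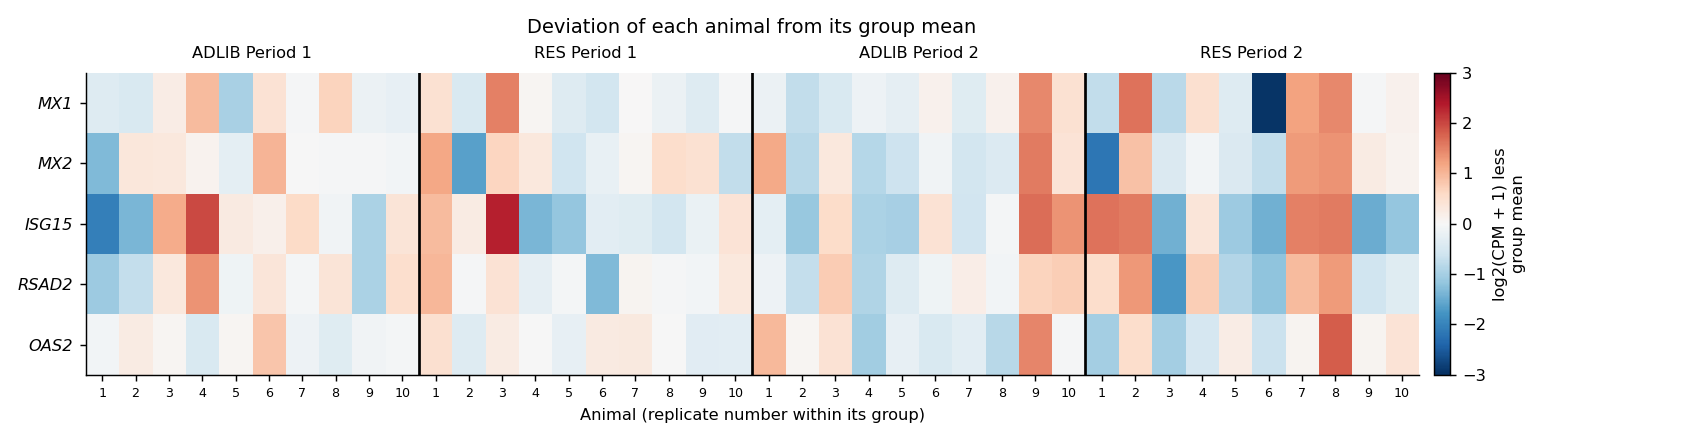
Deviation of each of the 40 animals (columns, by group and replicate) from its group mean for the 5 genes (rows), on the log2(CPM + 1) scale; red is above and blue below the mean. Columns of 1 colour, such as ADLIB Period 2 replicate 9 and RES Period 2 replicates 2, 6 and 8, are animals in which all 5 genes lay on the same side.

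Each gene was also set beside 3 measures of its library, giving 15 relations. ISG15 was higher in libraries that correlated less with the median of the others (r = -0.48, adjusted permutation p 0.0261, rho = -0.57, adjusted permutation p 0.0027), and r was -0.67 without the 2 farthest libraries and between -0.74 and -0.09 within groups. The part of this measure in the ISG15 differences between groups was not tested. The other 14 relations had adjusted permutation p above 0.05. Without the 2 farthest libraries, however, r with this measure also moved below 0 or further below it for the other genes, from -0.23 to -0.60 for RSAD2, from -0.10 to -0.57 for MX1, from 0.21 to -0.35 for MX2 and from 0.05 to -0.28 for OAS2. An alternative added after seeing the data took out this measure as well as the group mean. All 10 pairs then had an adjusted permutation p under 0.05, with r = 0.84 for ISG15 and RSAD2 and r = 0.74 for MX2 and OAS2. That fit used a single slope per gene over all 40 libraries, including the 2 farthest, without which the relations differed. It therefore cannot show how far the correlations of the pairs depend on this measure.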

How the data were processed

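Jejunal epithelium of 40 bulls was analysed, in groups taken from the labels. The authors prepared single-end TruSeq libraries, trimmed reads with Trim Galore, aligned them to UMD3.1 with TopHat, counted Ensembl protein-coding genes with HTSeq and deposited a normalised signal per gene and library, CPM scaled by TMM within each period. The submitters' processing notes also name CASAVA 1.4, Bowtie, SAMtools and edgeR. Reads were recovered from these values (tolerance 0.02 reads).

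Groups were compared with limma 3.58.1 (R 4.3.3, intensity trend, log2(CPM + 1)) over all listed genes, called at a Benjamini-Hochberg adjusted p under 0.001, with alternatives on the reads in edgeR 4.0.16 and DESeq2 1.42.0. Pairs were tested by 100000 two-sided permutations of animals within groups, and spread by permuting diets. Scripts were tested on simulated data. The 5 genes were set by identifier and not by their values, but the genes, lists and tests were chosen with earlier results of these data known. A list of pathway genes and of cell type markers set by symbol could not be applied, as 0 of 37063 RefSeq genes (ARS-UCD2.0) carry an Ensembl identifier. Genes named are the 5 and, by rule, those most like their mean profile, of which 2 of 10 are given. No sequences were at hand, and levels were not compared between genes.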

Additional observations from a re-analysis of the deposited data

Results flagged for a closer look

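Of 32 sets of 10 animals examined for a value far from the rest (20 for the 5 genes and 12 for library measures), 7 had a highest or lowest value whose gap to its nearest neighbour, as a share of the whole range, exceeded the critical value of 0.466. The gaps of the 5 genes were taken on the log2(CPM + 1) scale and those of the library measures on their own scale. Chance gives about 1 in 20 for normally distributed values, which the library measures need not be. Of the 20 sets for the 5 genes, 2 were flagged.

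For MX1, RES Period 1 replicate 3 was highest at 153.7 CPM, with the animal below it at 74.1 CPM, a gap of 0.506 of the range on the log2(CPM + 1) scale. In RES Period 2 replicate 6 was lowest at 6.32 CPM against 31.2 CPM, a gap of 0.468 of the range on the same log2 scale, just above the critical value.

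The number of listed genes at 0 was far higher than in the rest of the group in ADLIB Period 2 replicate 10 (42 against 11, gap 0.756), in RES Period 1 replicate 6 (87 against 18, gap 0.831) and in RES Period 2 replicate 1 (585 against 39, gap 0.937). The correlation with the median of the other libraries was lowest in RES Period 1 replicate 6 (0.883 against 0.950, gap 0.687) and in RES Period 2 replicate 1 (0.815 against 0.918, gap 0.603). In RES Period 2 replicate 1 ISG15 was at 93.5 CPM, the highest of its group, while MX2, at 2.36 CPM, was the lowest.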

How the results depend on the processing

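The number of genes called by limma at an adjusted p under 0.001 was 0 in each comparison. It became 2 in RES v ADLIB Period 1 with DESeq2, and in RES Period 2 v Period 1 it became 1 with library totals, 3 with the likelihood ratio test, 2 with DESeq2, 3 at an adjusted p under 0.05 and 9 under 0.1, and 0 to 1 when each animal was left out in turn. In the interaction the likelihood ratio test called 1. The 5 genes were among none of these, and 292 of their 300 differences under the alternatives, single left-out animals aside, kept their sign and stayed outside the threshold. The 8 others were near 0. OAS2 in RES v ADLIB Period 2 (-0.03) turned to 0.0668 with the likelihood ratio test, 0.141 with the quasi-likelihood test, 0.0713 with DESeq2, 0.079 without the 2 libraries that stood apart and 0.17 without RES Period 2 replicates 1 and 6, where MX1 was at 0.81, and the OAS2 interaction (-0.11) turned to 0.0043 with the quasi-likelihood test and 0.02 without the 2 libraries. RSAD2 in RES Period 2 v Period 1 (0.18) turned to -0.0316 without them, and lay between 0.031 and 0.374 when each animal was left out in turn. Leaving out 1 animal at a time gave -0.51 (without ADLIB Period 1 replicate 1) to -0.18 (without RES Period 1 replicate 2) for MX2, -0.35 (without ADLIB Period 1 replicate 1) to -0.08 (without ADLIB Period 1 replicate 4) for RSAD2 and 0.03 (without RES Period 1 replicate 1) to 0.17 (without ADLIB Period 1 replicate 6) for OAS2 in RES v ADLIB Period 1, -0.33 (without ADLIB Period 2 replicate 9) to -0.05 (without ADLIB Period 2 replicate 4) for OAS2 in ADLIB Period 2 v Period 1, -0.17 to 0.35 for MX1 in RES Period 2 v Period 1, -0.24 to 0.13 for OAS2 in RES v ADLIB Period 2 and -0.31 to 0.0469 for the OAS2 interaction. The cause was not tested.

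Of the 10 pairs, 8 passed over the 40 animals. Within groups of 10 animals there were 1 in ADLIB Period 1, 5 in ADLIB Period 2, 0 in RES Period 1 and 4 in RES Period 2, and 0 within each of the 4 code digits. A code digit holds only 2 to 4 animals of a group, so permuting within groups leaves few arrangements and that 0 says little about the correlations. OAS2 correlations were below 0 within ADLIB Period 1 (-0.21 with MX1, -0.22 with ISG15, -0.18 with RSAD2) and within code digit 1 (-0.25 with MX1, -0.11 with ISG15). The difference in SD, RES less ADLIB, was 0.21 for MX2 in Period 2 and -0.0671 without the 2 libraries. In Period 1 it was 0.03 for MX1 and -0.04 for OAS2, whereas the difference in interquartile range was -0.31 and 0.35, and the mean absolute deviation that was tested had the signs of the latter (-0.06 and 0.03).

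Replicate numbers are shared between groups, but the labels do not say that they pair animals, and the deviations of animals with the same number had a mean r between -0.10 and 0.16. With the replicate number as a block limma called 0 genes in each comparison, and r of RSAD2 and OAS2 became 0.44. OAS2, at up to 53 reads, is limited by depth, and the filter of 1 CPM in every library removed it.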
